A study of Rattus norvegicus with 8 samples.

Results

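The genes described here are the 4 myogenic regulatory factors (Myod1, Myf5, Myog and Myf6) together with 6 genes that act beside or against them when a cell commits to muscle: Mef2a, Mef2d, Cdh15, Smyd1, Id1 and Id3. They were taken by gene symbol from the annotation of the array's probe sets. All 10 were found, each with 1 probe set, among 15037 distinct symbols. The cells were H9c2, a line of rat myoblasts derived from embryonic heart that can form skeletal muscle-like myotubes, and the array was the rat Clariom S Pico, 1 per RNA sample. Nanoceria are cerium oxide nanoparticles, given at 100 µg/ml in a differentiation medium with 1% serum, which all cultures received. The groups were nanoceria-treated cells in space (n = 2), untreated cells in space (n = 1), nanoceria-treated cells on ground (n = 3) and untreated cells on ground (n = 2, replicates 1 and 3).

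Flight cultures travelled at 27 °C, were moved to 37 °C aboard the International Space Station on day 7, and fixation followed on day 10. Cells on ground were grown in a later run that copied the flight temperatures, so gravity regime and culture run cannot be told apart. All 8 samples came from 1 cell line, and the labels did not say whether replicates were separate cultures. Values are log2 intensities. Over all 23188 probe sets they ran from 3.11 to 14.25, and the array medians from 6.75 to 6.87. No measure of background was available, so a low value may not lie above it, and levels are compared between arrays and never between genes.

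Myogenic regulatory factors are basic helix-loop-helix proteins. They pair with E proteins, bind the E-box in muscle gene promoters and switch on the muscle programme: Myod1 and Myf5 determine the lineage, Myog drives the step into differentiation and Myf6 acts mainly later. MEF2 proteins are MADS-box partners of these factors. Id proteins have the helix-loop-helix without the basic region, so they take up E proteins without binding DNA and hold myoblasts back from differentiating. Cdh15 (M-cadherin) is a cell adhesion molecule of myogenic cells, and Smyd1 is a muscle-restricted lysine methyltransferase needed for sarcomere assembly.

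The promoters of Myog, Myf5 and Myf6 are shown because the E-box and the MEF2 site are the elements through which the factors above regulate one another. Each is the 250 bases before the transcription start site in RefSeq, build GRCr8, where 9 of the 10 genes were matched. Capitals mark E-boxes (CANNTG, the same on both strands) and MEF2 sites with any outer base, searched on both strands. The looser form of the MEF2 site was chosen after the sequences were seen.
Myog, chr13:48297226-48297475, plus strand: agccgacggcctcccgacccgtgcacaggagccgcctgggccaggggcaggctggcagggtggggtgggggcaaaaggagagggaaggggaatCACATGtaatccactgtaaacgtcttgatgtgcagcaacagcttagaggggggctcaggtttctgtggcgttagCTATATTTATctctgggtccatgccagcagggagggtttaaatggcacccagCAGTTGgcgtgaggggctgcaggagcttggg
Myf5, chr7:44692639-44692888, minus strand: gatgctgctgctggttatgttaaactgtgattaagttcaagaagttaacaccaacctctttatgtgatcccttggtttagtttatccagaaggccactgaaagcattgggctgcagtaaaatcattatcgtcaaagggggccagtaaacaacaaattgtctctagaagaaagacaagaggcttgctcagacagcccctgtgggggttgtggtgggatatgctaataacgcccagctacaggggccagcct
Myf6, chr7:44701314-44701563, minus strand: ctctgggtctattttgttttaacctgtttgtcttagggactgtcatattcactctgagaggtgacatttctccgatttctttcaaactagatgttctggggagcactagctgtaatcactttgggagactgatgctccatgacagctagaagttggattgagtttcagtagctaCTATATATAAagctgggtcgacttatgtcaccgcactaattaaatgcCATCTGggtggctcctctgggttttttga
The Myog window held 2 E-boxes, 157 to 152 and 31 to 26 bases before the start site, and a MEF2 site with a non-consensus outer base at 83 to 74. The Myf6 window held 1 E-box at 29 to 24 and 1 full MEF2 site at 76 to 67, while the Myf5 window held neither. Of 27457 rat promoters of the same length, 65.2% held an E-box, 9.23% a MEF2 site with any outer base and 3.07% a full MEF2 site, so the E-box is common in such windows. Of the other 6 genes matched, 3 had an E-box (3 in Cdh15, 1 each in Smyd1 and Id1) and Mef2a had 1 full MEF2 site. The Cdh15 and Mef2a windows lay wholly inside the annotated span of the gene, so they do not precede its outermost start. The more specific E-box CAGCTG, present in 11.9% of promoters, was in none of the 9.

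Myog varied most of the 10 genes. Its level was 8.24 and 9.59 in nanoceria-treated cells in space, 8.97 in untreated cells in space, 9.39, 8.94 and 9.89 in nanoceria-treated cells on ground, and 8.39 and 6.25 in untreated cells on ground. The range was 3.65 on the log2 scale, or 12.5-fold, and its lower end was a single array, ground untreated replicate 3. In order of group means, ground nanoceria (9.41 ± 0.48, SD, n = 3) lay above the single untreated space array, then space nanoceria (8.92 ± 0.96, SD, n = 2) and ground untreated (7.32 ± 1.52, SD, n = 2). The first 3 of these groups overlapped in their values, and only 1 array of the lowest group lay below every other array.

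Myod1, the factor that commits cells to the muscle lineage, had a narrower range of 2.33-fold. It lay at 7.53 and 7.72 in space with nanoceria, 7.51 in space without, 8.19, 7.45 and 7.63 on ground with nanoceria, and 7.42 and 6.97 on ground without. Ground nanoceria replicate 1 was the highest array and ground untreated replicate 3 the lowest, as for Cdh15 and Smyd1. Myf5, the other determination factor, was nearly flat at 4.01 to 4.10 on 7 arrays and stood at 4.75 on the untreated space array. These are low values on a scale with no background measure. Myf6 was similarly low and spread without order, at 4.82 and 4.18 in space with nanoceria, 4.19 in space without, 4.24 to 4.61 on ground with nanoceria and 4.65 and 4.32 on ground without.

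The MEF2 genes lay on opposite sides of their untreated level on ground. Mef2a lay at 11.63 and 11.41 with nanoceria in space, 11.73 without, 10.34, 11.17 and 11.43 with nanoceria on ground, and 11.67 and 11.69 without. Every nanoceria-treated array was below every untreated one, and ground nanoceria replicate 1 was lowest. Mef2d lay at 9.15 and 9.09 with nanoceria in space, 9.18 without, 9.51, 9.29 and 10.00 with nanoceria on ground, and 9.29 and 9.22 without. Its 3 space arrays were below all 5 ground arrays.

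Cdh15 was lowest in untreated cells on ground. The adhesion gene lay at 9.05 and 9.09 with nanoceria in space, 9.10 without, 9.55, 9.12 and 8.80 with nanoceria on ground, and 8.61 and 8.54 without, so both untreated ground arrays were below the other 6. Smyd1 varied by only 1.43-fold, at 6.42 and 6.36 with nanoceria in space, 6.34 without, 6.74, 6.55 and 6.54 with nanoceria on ground, and 6.50 and 6.22 without.

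The inhibitors Id1 and Id3 were highest on the same array, ground nanoceria replicate 1, and lowest on the same array, space nanoceria replicate 1. Id1 lay at 8.84 and 9.43 with nanoceria in space, 9.32 without, 10.08, 9.81 and 8.96 with nanoceria on ground, and 9.30 and 9.43 without. Treated arrays thus lay on both sides of untreated ones in each regime. Id3 lay at 9.79 and 10.33 with nanoceria in space, 9.84 without, 11.00, 10.56 and 10.51 with nanoceria on ground, and 10.35 and 10.08 without, with the 3 treated ground arrays above the other 5.

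**Figure D1:**
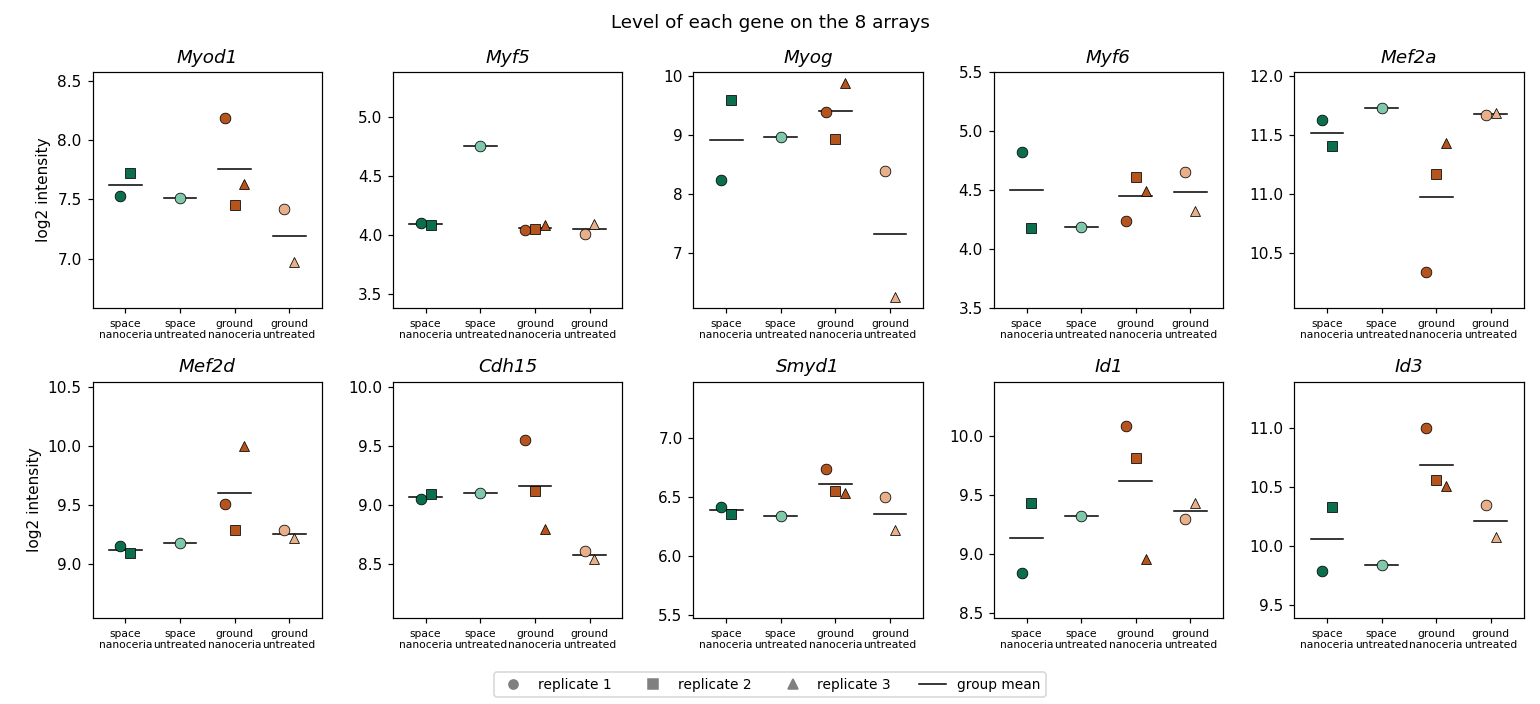
Log2 intensity (vertical axis, its own scale in each panel) of the 10 genes on the 8 arrays, by group; points are arrays, shapes the replicate number and bars the group mean. Myog ran from 6.25 to 9.89 and was lowest on ground untreated replicate 3, while Mef2a was lowest (10.34) on ground nanoceria replicate 1.

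Ground untreated replicate 3 was the lowest of the 8 arrays for 4 of the 10 genes (Myod1, Myog, Cdh15 and Smyd1), as it was for 16.5% of all probe sets, and the highest for 0 of the 10, against 12.9%. Cell cycle genes were low on it as well: their mean was -1.93 relative to the average of all arrays, against -0.04 to 0.45 on the other 7, and 26 of 27 had their lowest value there. The summed intensity of those 27 genes was 5189 on this array and 20056 to 27963 on the others. Ground nanoceria replicate 1 was the highest array for 5 of the 10 genes, against 16.3% of all probe sets. These arrays were picked out after their values were seen, and the part of the cell cycle difference in the results below was not tested.

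Among markers of the labelled cell type, Tnnc1 ran from 9.42 to 12.10, Tnnt2 from 9.18 to 11.43, Des from 6.64 to 7.80 and Chrna1 from 4.41 to 6.90 over the 8 arrays. Without a background measure it cannot be told whether the dimmer ones were detected. The summed intensity of 10 myoblast markers, to which Vim (median 13.82) contributed most, was 25990 and 28688 in space with nanoceria, 29921 in space without, 29323 to 31694 on ground with nanoceria, and 24628 and 22079 on ground without. It was higher with nanoceria on ground on every array. That list contains Cdh15, and its Des, Itga7, Chrna1, Acta1, Actc1, Tnnt2 and Tnnc1 are also in the early differentiation list below. The sum is therefore not separate from those results. For other cells, the sums ran from 653 to 798 over 8 cardiomyocyte markers, 182 to 257 over 6 endothelial markers, 237 to 303 over 5 leukocyte markers and 21114 to 24996 over 5 fibroblast markers. The sum over 5 smooth muscle markers was 16082 on ground untreated replicate 3 and 24968 to 32054 elsewhere. Col1a1 (median 14.19) contributed most to the fibroblast sum, in which Pdgfra and Tcf21 had medians of 5.63 and 3.91. Tagln (13.33) and Acta2 (13.27) contributed most to the smooth muscle sum. A high sum therefore does not show that cells of that type were present. No probe set was listed at 0 on any array. Fewer cells of a type and less RNA per cell cannot be told apart in such samples.

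Nanoceria-treated cells on ground were compared with untreated ones to find the response to the particles at normal gravity. Myog was higher in treated cells by 2.09 ± 0.66 (SE), or 4.25-fold (95% confidence interval of the log2 difference 0.54 to 3.63, limma adjusted p = 0.345). Cdh15 was higher by 0.58 ± 0.23, or 1.50-fold (limma adjusted p = 0.419), and Myod1 by 0.57 ± 0.26 (limma adjusted p = 0.476). Mef2a was lower at -0.69 ± 0.31 (limma adjusted p = 0.469). Id1, the inhibitor, differed by 0.26 ± 0.34 (limma adjusted p = 0.816), with an interval from -0.54 to 1.06. The other 5 genes lay between -0.04 and 0.48, with Id3 at the upper end.

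With Benjamini-Hochberg adjustment in limma, 0 of the 10 genes passed, as did 0.00% of all probe sets. At an unadjusted p below 0.05, 2 genes were higher (Myog and Cdh15) and 0 lower, against 4.42% of probe sets higher and 6.57% lower. Treated and untreated ground arrays did not overlap for 6 genes that were higher (Myod1, Myog, Mef2d, Cdh15, Smyd1 and Id3), where 14.3% of probe sets were so placed, and for 1 that was lower, Mef2a, against 12.0%. For Mef2d the gap was below rounding, with nanoceria replicate 2 and untreated replicate 1 both at 9.29. The median difference of the 10 genes was 0.30, and that of all probe sets 0.04. The 10 genes were measured on the same 5 arrays and are not independent of one another.

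The untreated side held 2 arrays, and the size of the Myog difference depended on which was used. Without ground untreated replicate 3 it was 1.01 ± 0.56, and without ground untreated replicate 1 it was 3.16. In either case Myog was higher in all 3 treated arrays. For Cdh15 the value was 0.54 ± 0.30 without ground untreated replicate 3 and 0.39 ± 0.18 without ground nanoceria replicate 1. Mef2a moved to -0.37 ± 0.18 without ground nanoceria replicate 1. Id1 was 0.02 ± 0.33 without that array and 0.58 ± 0.24 without ground nanoceria replicate 3. Myod1 was 0.35 ± 0.21 without ground nanoceria replicate 1. With untreated replicate 3 left out it was 0.34 ± 0.31, and with untreated replicate 1 left out 0.79 ± 0.31. The count of 2 genes at an unadjusted p below 0.05 became 0 without ground untreated replicate 3. It became 1 without ground nanoceria replicate 1 or without either space nanoceria array, which carry part of the estimate of the spread.

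**Figure D2:**
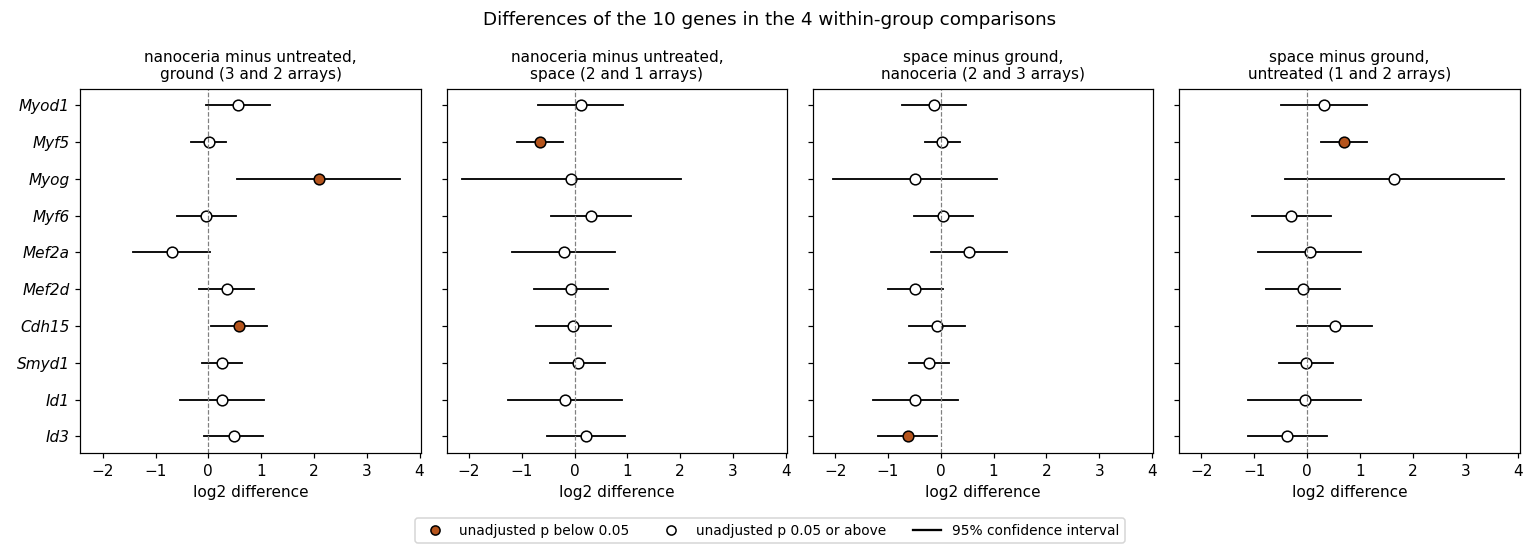
Log2 difference (horizontal axis) of each gene in the 4 comparisons within a regime or a treatment; points are limma estimates, filled where the unadjusted p was below 0.05, and lines 95% confidence intervals. Myog lay furthest from 0, at 2.09, for nanoceria on ground, and no point passed after adjustment over all probe sets.

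In space, nanoceria-treated cells were compared with a single untreated array, whose own spread is unknown and was taken from the other groups. Over all probe sets the space arrays correlated with one another at 0.991 to 0.992, and the ground arrays at 0.959 to 0.985. A spread shared by all groups may therefore not be that of the space arrays. Myog was at 8.24 and 9.59 in treated cells, on either side of 8.97 in the untreated sample, for a difference of -0.06 ± 0.89. Its 95% confidence interval, -2.13 to 2.02, spans values of either sign and ends just under the 2.09 found on ground. Myf5 was lower in treated cells at -0.66 ± 0.19 (limma adjusted p = 1.00), which rests on the 4.75 of that untreated array. Myf6 differed by 0.31 ± 0.32, Id3 by 0.22 ± 0.32, Mef2a by -0.21 ± 0.42 and Id1 by -0.18 ± 0.46, each with a limma adjusted p of 1.00. Myf5 was the only 1 of the 10 genes at an unadjusted p below 0.05, where 1.47% of probe sets were (0.707% higher and 0.763% lower), and 0.00% of probe sets passed after adjustment. Treated arrays lay on 1 side of the untreated one for 2 genes that were higher and 4 that were lower, against 34.4% and 31.5% of probe sets. Mef2d and Cdh15 were among those lower, although every treated ground array was above the untreated ground arrays (2 of 10, against 3.26% of probe sets). The opposite pattern held for 0 of 10 (2.13%). The placement was narrow for Mef2d on ground, with nearest arrays both at 9.29 after rounding, and for Cdh15 in space, at 9.09 against 9.10.

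Whether nanoceria acted differently in space and on ground was tested by the interaction, the effect in space minus that on ground. Myog had the largest value of the 10, at -2.14 ± 1.10 (limma adjusted p = 1.00), with an interval from -4.73 to 0.45. It was -1.07 ± 0.81 without ground untreated replicate 3 and -3.22 without ground untreated replicate 1. Myf5 stood at -0.67 ± 0.23, Cdh15 at -0.61 ± 0.38, Mef2d at -0.41 ± 0.37 and Id1 at -0.44 ± 0.57, each with a limma adjusted p of 1.00. Mef2d was at -0.21 ± 0.25 without ground nanoceria replicate 3, and Id1 was at -0.15 ± 0.63 without space nanoceria replicate 1 and -0.21 ± 0.53 without ground nanoceria replicate 1. Of the 10 genes 8 had a negative value, with a median of -0.42 against -0.01 over all probe sets. Only Myf5 was below an unadjusted p of 0.05, where 2.35% of probe sets were (1.44% higher and 0.906% lower), and 0 genes and 0.00% of probe sets passed after adjustment.

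With 1 common effect of nanoceria fitted over both regimes, 8 of the 10 genes were higher in treated cells and 0 were below an unadjusted p of 0.05, where 9.63% of probe sets were (3.77% higher and 5.86% lower). Myog was higher by 1.32 ± 0.61, Myod1 by 0.41 ± 0.21 and Id3 by 0.38 ± 0.18, while Mef2a was lower at -0.52 ± 0.24 (limma adjusted p from 0.532 to 0.567). Id1 differed by 0.10 ± 0.27 (limma adjusted p = 0.918). Mef2a was the only gene whose 5 treated arrays did not overlap with the 3 untreated ones, and it was lower, as were 2.28% of probe sets, while 0 were so placed and higher (2.47%). The Mef2a difference was -0.31 ± 0.13 without ground nanoceria replicate 1, that of Myod1 was 0.24 ± 0.21 without ground untreated replicate 3 and 0.26 ± 0.16 without ground nanoceria replicate 1, and that of Myog was 0.51 ± 0.42 without ground untreated replicate 3 and 2.09 without the untreated space array. No gene passed after adjustment (0 of 10, 0.00% of probe sets, smallest limma adjusted p of the 10 genes 0.532).

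A common difference between space and ground, fitted over treated and untreated cells, asked which genes followed the gravity regime. Id3, the inhibitor, was lower in space at -0.54 ± 0.18, or 0.687-fold (limma adjusted p = 0.434), and Id1 lay in the same direction at -0.32 ± 0.27 (limma adjusted p = 0.723). Mef2d was lower at -0.34 ± 0.18 (limma adjusted p = 0.580), with all 3 space arrays below all 5 ground arrays, a placement shared by 3.14% of probe sets, and 0 of 10 genes had the reverse (1.97%). Myf5 was higher at 0.27 ± 0.15, or 0.03 without the untreated space array, and Mef2a at 0.36 ± 0.24, while Myog differed by 0.28 ± 0.61 (limma adjusted p from 0.600 to 0.906). The Myog value was -0.17 without ground untreated replicate 3 and -0.49 without the untreated space array. Mef2d was -0.20 without ground nanoceria replicate 3, Mef2a was 0.15 without ground nanoceria replicate 1, and Id1 was -0.12 without space nanoceria replicate 1. One gene, Id3, was below an unadjusted p of 0.05, where 9.56% of probe sets were (5.30% higher and 4.26% lower), and 0 of 10 genes and 0.00% of probe sets passed after adjustment. Without space nanoceria replicate 1, Id3 stood at -0.37 ± 0.19 and 0 of the 10 were at that level. The median difference of the 10 genes, with every array kept, was -0.02, and that of all probe sets -0.04.

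Among nanoceria-treated cells, where each side had more than 1 array, Id3 was again lower in space, at -0.63 ± 0.24 (limma adjusted p = 0.549). This shares arrays with the comparison over both treatments and is not separate evidence. Mef2d was lower at -0.48 ± 0.22 and Id1 at -0.48 ± 0.34, Mef2a was higher at 0.54 ± 0.31, and Myog differed by -0.49 ± 0.66 (limma adjusted p from 0.616 to 0.874). Space and ground arrays did not overlap for Id3, Mef2d and Smyd1, all lower in space (3 of 10, against 17.6% of probe sets), and for Myf5, higher by 0.03 (1 of 10, against 13.6%). Of the 10 genes 1 was at an unadjusted p below 0.05, where 8.41% of probe sets were (5.02% higher and 3.39% lower), and 0 (0.00% of probe sets) passed after adjustment. Id3 stood at -0.36 ± 0.28 without space nanoceria replicate 1 and at -0.48 ± 0.23 without ground nanoceria replicate 1, and the count was then 0. Mef2d stood at -0.28 ± 0.16 without ground nanoceria replicate 3, where the count was 3, and at -0.64 ± 0.21 without ground nanoceria replicate 2, where it was 2. Mef2a was at 0.22 without ground nanoceria replicate 1, and Id1 at -0.19 without space nanoceria replicate 1.

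Untreated cells in space, again a single array, were set against untreated cells on ground. Myog was higher in space by 1.65 ± 0.89 (limma adjusted p = 1.00), at 8.97 against 8.39 and 6.25, and by 0.58 without ground untreated replicate 3 and 2.73 without ground untreated replicate 1. Cdh15 was higher by 0.52 ± 0.30 and Myf5 by 0.70 ± 0.19 (limma adjusted p = 1.00 for both). Id3 differed by -0.38 ± 0.32, or -0.24 without ground untreated replicate 1, and Id1 by -0.04 ± 0.46. The untreated space array lay above both untreated ground arrays for 5 of the 10 genes and below both for 3, against 26.3% and 30.9% of probe sets. Myf5 was the only 1 of the 10 genes at an unadjusted p below 0.05, where 3.14% of probe sets were (1.63% higher and 1.51% lower), and 0.00% of probe sets passed after adjustment.

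Most of the listed genes of early differentiation were higher with nanoceria on ground, as Myog was. Whether the myogenic factors had a part in this was not tested. The list of early differentiation and fusion genes, such as acetylcholine receptor subunits and embryonic sarcomere genes, had 35 of 41 genes on the array by name. Not found were the fusion genes Mymk, Mymx and Myof, and also Adam12, Ttn and Lmod3. In nanoceria-treated ground cells 28 of the 35 were higher than in untreated ones, with a median of 0.69 against 0.04 over all probe sets. At an unadjusted p below 0.05, 12 were higher, where 4.42% of probe sets were. Not all parts of the list shared this. The adhesion genes Jam2, Jam3 and Cdh2 differed by -0.07 ± 0.16, -0.14 ± 0.35 and -0.06 ± 0.14. The myosin heavy chain genes Myh3 and Myh8 differed by 0.20 ± 0.33 and -0.08 ± 0.30, and the light chain gene Myl4 by 0.94 ± 0.40. Chrna1, the alpha subunit of the muscle acetylcholine receptor, was at 6.05, 5.58 and 6.90 in treated cells and at 4.41 and 4.66 in untreated cells. The difference was 1.64 ± 0.35 (limma adjusted p = 0.208), and the untreated values are low and may not lie above background. Acta1, skeletal alpha-actin, was at 10.27, 10.29 and 10.81 in treated cells and at 9.21 and 7.52 in untreated cells, a difference of 2.09 ± 0.47 (limma adjusted p = 0.221). No gene of the list passed after adjustment over all probe sets (0 of 35), and the list was chosen with earlier results of these arrays known. Without ground untreated replicate 3, 27 of 35 were higher with a median of 0.34, and 5 were higher and 1 lower at an unadjusted p below 0.05, where 5.65% of probe sets were then higher. Acta1 was then at 1.25 ± 0.31, and at 2.94 ± 0.31 without ground untreated replicate 1.

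The list lay on opposite sides between space and ground in treated and untreated cells. In treated cells 28 of 35 were lower in space than on ground, with a median of -0.28 against -0.05 over all probe sets, and 9 were lower at an unadjusted p below 0.05 (3.39% of probe sets). That count was 3 without space nanoceria replicate 1 and 4 without space nanoceria replicate 2. In untreated cells 26 of 35 were higher in space, with a median of 0.30, which was 0.47 without ground untreated replicate 1 and 0.02 without ground untreated replicate 3. Over both treatments 24 of 35 were lower, with a median of -0.13. Chrna1 was at 4.77 and 4.82 in treated space cells, below all 3 treated ground arrays, and these low values too may not lie above background. In space the list differed between treated and untreated cells by a median of -0.08. In the interaction 31 of 35 were lower, with a median of -0.64, and 6 were lower at an unadjusted p below 0.05, where 0.906% of probe sets were. The median was -0.35 without ground untreated replicate 3 and -0.42 without space nanoceria replicate 1. The count of 6 was 3 without space nanoceria replicate 2, 4 without space nanoceria replicate 1 or ground untreated replicate 3, 10 without ground nanoceria replicate 3, and 15 when ground untreated replicate 1 was left out. The interaction contains all 5 arrays of the comparison on ground, and the comparison of regimes in treated cells shares the 3 treated ones.

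**Figure D3:**
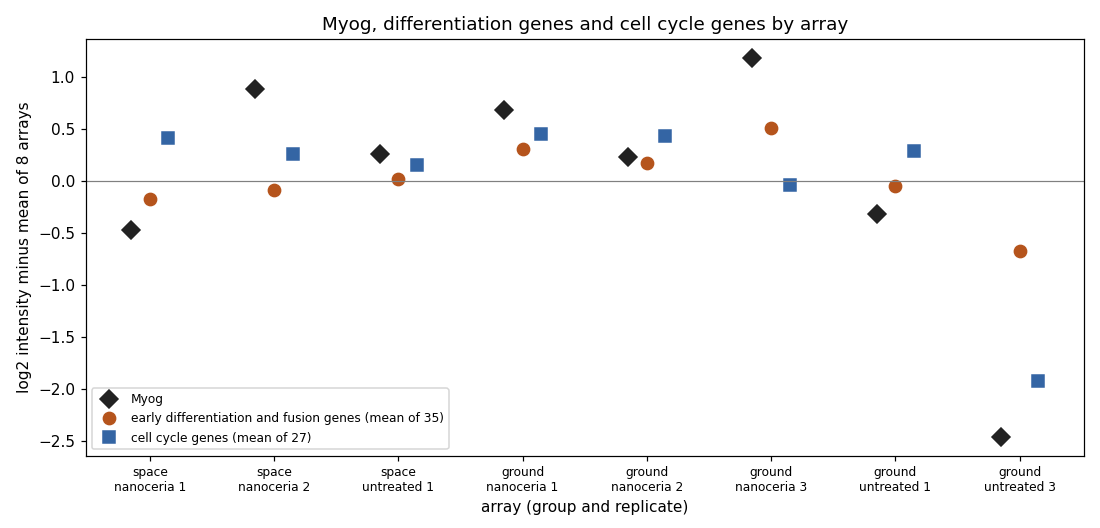
Log2 intensity minus the mean of the 8 arrays (vertical axis) for Myog, the mean of 35 early differentiation and fusion genes and the mean of 27 cell cycle genes on each array (horizontal axis). All 3 were lowest on ground untreated replicate 3, where the cell cycle mean was -1.93, and the differentiation mean was highest, at 0.51, on ground nanoceria replicate 3.

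Cell cycle genes were also higher with nanoceria on ground, 26 of 27 with a median of 1.07, and 9 were higher at an unadjusted p below 0.05, where 4.42% of probe sets were. The replication helicase genes Mcm7 and Mcm2 differed by 1.38 ± 0.34 (limma adjusted p = 0.256) and 0.98 ± 0.25 (limma adjusted p = 0.258). Without ground untreated replicate 3, 16 of 27 were higher with a median of 0.20, and 4 were higher and 4 lower at an unadjusted p below 0.05, where 5.65% of probe sets were then higher. Mcm7 and Mcm2 were then at 0.79 and 0.58. Without ground untreated replicate 1 the median was 2.32 and 26 were higher at that level, against 5.23% of probe sets.

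Partners and upstream regulators of the myogenic factors were evenly divided on ground, with 9 of 18 higher and a median of 0.01. Srf, a transcription factor of muscle and cytoskeletal genes, differed by 0.95 ± 0.20 (limma adjusted p = 0.207), and Tcf12, an E protein that pairs with Myod1, by -0.59 ± 0.19 (limma adjusted p = 0.347). Among inhibitors of the factors, including Notch effectors and class IIa histone deacetylases, 17 of 24 were higher with a median of 0.17. Hdac5, which represses MEF2, differed by 0.72 ± 0.15 (limma adjusted p = 0.200), and Id2, another Id gene, by -0.75 ± 0.26 (limma adjusted p = 0.380), opposite in sign to Id1 and Id3. In each of these lists 2 genes were higher and 2 lower at an unadjusted p below 0.05, and 0 passed after adjustment. Of all probe sets 4.42% were higher and 6.57% lower at that level. Lists of 18 and 24 genes are too small to set such counts apart from these shares.

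Id genes are classical targets of BMP signalling, and the list of BMP receptors, SMADs and responsive genes did not lean to one side with nanoceria on ground (14 of 27 higher, median 0.02). Its genes with the smallest p were receptor genes, Bmpr1b at -0.67 ± 0.20 (limma adjusted p = 0.314) and Bmpr1a at -1.21 ± 0.58 (limma adjusted p = 0.493). Bmpr1a was at -0.71 without ground untreated replicate 3, -0.78 without ground nanoceria replicate 3 and -1.80 without ground nanoceria replicate 2. Between space and ground over both treatments, where Id3 was lower in space, 15 of 27 were higher with a median of 0.06, and 2 were higher at an unadjusted p below 0.05 and 0 lower. The shares of all probe sets were 5.30% higher and 4.26% lower, and 27 genes are too few to set the list's counts apart from these. The list mixes activators and antagonists of the pathway, so its balance of signs does not measure signalling in either comparison. Whether BMP signalling had a part in the Id1 and Id3 values was not tested. Chromatin coregulators of the myogenic factors had 15 of 23 genes higher with nanoceria on ground and a median of 0.14. They included Smarcd3, a subunit of muscle SWI/SNF complexes, at 0.58 ± 0.18 (limma adjusted p = 0.344) and the corepressor gene Ncor1 at -1.03 ± 0.26 (limma adjusted p = 0.262), or -0.68 without ground untreated replicate 1. In these lists 0 genes passed after adjustment.

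The genes whose levels followed Myog most closely over the 8 arrays, among 8178 brighter named genes, were Ralgdsl2, Fancd2osl1, Cdc42ep2, Plec and Cdc42ep1, with Pearson's r from 0.948 to 0.954. Without ground untreated replicate 3 these were 0.76 to 0.87 over 7 arrays. For Id1 they were Gip, Lrrc42, Crispld2, Ralb and Psma1, with r from 0.923 to 0.961 over 8 arrays and 0.93 to 0.97 without that array. The values describe likeness on these arrays only, and the genes were picked as the closest of many. For Myog the lower r without ground untreated replicate 3 shows that the likeness rests in part on that array.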

How the data were processed

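Total RNA, 30 ng per sample, was measured on 1 array for each of 8 samples. In the deposited table each probe set had 1 intensity per sample, which the authors obtained by RMA, per the submitters' processing notes. The software and settings behind it are not given in the sources used here. Intensities were linear and above 0, and log2 was taken without a pseudocount. Of 23188 probe sets, 15049 carried 1 gene symbol, 0 several and 8139 none here; RefSeq gene identifiers changed 0 symbols.

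Differences were fitted over all probe sets with limma 3.58.1 in R 4.3.3 (empirical Bayes, Benjamini-Hochberg at 0.05). The model with regime and treatment as additive terms had 5 residual degrees of freedom, and a fit with 1 mean per group 4, for 7 comparisons in all. No gene-set test was used. Tests on simulated data of 23188 probe sets, 200 of them changed, recovered 80.5% of 4-fold and 0.00% of 2-fold changes for nanoceria on ground, 92.0% and 53.0% for space against ground, and 26.5% and 0.00% for the interaction. The changed probe sets were picked at random and the noise was independent between probe sets, so outlying arrays shared by many genes were absent. On ground the SE was 0.66 for Myog, against a median of 0.21 over all probe sets. The recovered shares therefore need not apply to the 10 genes. The number of arrays limits the precision, and p-values reflect only how far these samples varied, which may be technical.

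In each comparison the 4 genes with the smallest p, and always Myog and Id1, are given with their difference, and in each of 6 further lists (154 of 186 genes measured) the 2 with the smallest p on ground. The closest genes by Pearson's r came from named probe sets above the median level. The alternatives were cyclic loess, scaling to equal array medians, only the brighter 66.7% of probe sets, a trended robust variance, array weights, the replicate number as a block, and leaving out each array. The members and lists were chosen with earlier results of these data known.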

Additional observations from a re-analysis of the deposited data

Results flagged for a closer look

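Every treated ground array lay above both untreated ones for Cdh15 and Mef2d, while both treated space arrays lay below the single untreated one. The placement was narrow in parts. For Mef2d, ground nanoceria replicate 2 and ground untreated replicate 1 were both at 9.29 after rounding. For Cdh15, space nanoceria replicate 2 was at 9.09 and the untreated space array at 9.10. For Cdh15 the nanoceria effect in space minus that on ground was -0.61 ± 0.38, and for Mef2d it was -0.41 ± 0.37, so in limma neither passed the test of the difference (adjusted p = 1.00 for both). Without ground nanoceria replicate 3 the Mef2d value was -0.21 ± 0.25. The same placement held for 3.26% of all probe sets. In space the differences were small, -0.03 ± 0.30 for Cdh15 and -0.06 ± 0.30 for Mef2d. No group had 4 or more arrays, so single arrays were not tested as outliers within a group.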

How the results depend on the processing

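Of 49 values for named genes, alternatives other than leaving out an array kept the direction in 286 of 287 recomputations. Those with the brighter probe sets or the trended robust variance leave the log2 difference itself unchanged. They could not turn a direction, so the tally overstates how far directions were tried. The exception was Id1 for nanoceria over both regimes, at -0.05 with the replicate block. The number of the 10 genes at an unadjusted p below 0.05 became 1 for nanoceria over both regimes with array weights, 1 for nanoceria on ground with the replicate block, and 2 for space against ground in treated cells with equal array medians. It became 0 for nanoceria in space and for the interaction, both with the replicate block and with the brighter probe sets alone, and 0 for space against ground in untreated cells with the brighter probe sets, since the Myf5 probe set was not among those. Array weights gave 4 probe sets past adjustment for space against ground, in place of 0. Deviations of same-numbered arrays from their group means correlated at -0.35 to -0.01. With so few arrays per group these values are not independent and cannot tell whether replicate numbers paired the samples. The block moved the count of probe sets at an unadjusted p below 0.05 on ground to 1882, against 2549 without it. In both fits 0 passed adjustment. On ground, 40.3% of the probe sets at that level were higher with nanoceria, and 50.8% with equal array medians; for the interaction these were 61.5% and 47.7%.

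Leaving out 1 array at a time gave 0 to 167 probe sets past adjustment for nanoceria on ground (167 without ground untreated replicate 1, among them Acta1 at 2.94, Mcm7 at 1.96 and Mcm2 at 1.38), 0 to 1 for space against ground, 0 to 6 for space against ground in untreated cells and 0 in the other 4 comparisons. The number of the 10 genes at an unadjusted p below 0.05 ran from 0 to 2 for nanoceria over both regimes, on ground and for the interaction, from 0 to 1 for space against ground, 1 throughout for nanoceria in space, from 0 to 3 for space against ground in treated cells and from 1 to 2 in untreated cells. The sign turned for Id1 (-0.06 to 0.28) with nanoceria over both regimes, and for Myog between space and ground over both treatments (-0.49 to 0.88) and in treated cells (-1.16 to 0.19). With nanoceria in space it turned for Myog (-0.73 to 0.62), Myf6 (-0.01 to 0.63), Id1 (-0.48 to 0.11) and Id3 (-0.05 to 0.49), and between space and ground in untreated cells for Id1 (-0.11 to 0.02). Where a value moved with an array, the cause was not tested. Each of the 10 genes had 1 probe set, so no second probe set could be tried, and without the untreated space array the comparisons that need it have no value. Whether Myf5 and Myf6 signals exceed background cannot be told from these values.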
